A study of Mus musculus with 8 samples.

Results

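The sirtuin genes Sirt1 to Sirt7 and Nampt were followed in liver RNA of pregnant mice and of their male fetuses, through every non-control probe that the array annotation assigns to one of these symbols. This gave 14 probes of 8 genes among 41174 probes, and each probe was read apart. All animals were C57BL/6J. In the food restriction (FR) group the pregnant mice received 50% of the chow eaten by the controls from gestation day 10 to 17, in the control group chow was given freely, and livers of both groups were collected at gestation day 18. Per the labels, liver came from 6 mothers on each diet, with 2 male fetuses taken from each of them. The titles put the arrays into 4 pairs of 1 FR and 1 control pool, each pair hybridised once in each dye orientation: mothers, pools of 6 animals (1 pair); fetuses, pools of 6 (1 pair); and fetuses, pools of 3, called group 1 and group 2 (2 pairs). Which litters entered which pool, and whether pools of different size share litters, is not given in the sources used here, so that p-values measure the spread between these pools. The descriptions also carry a text on rat hippocampus that numbers the dye-exchanged array as another pool. The titles were followed, and the count of pool pairs rests on that reading.

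Sirtuins are enzymes that remove acetyl or other acyl groups from proteins and use up NAD in each reaction. Sirt1, Sirt6 and Sirt7 work mainly in the nucleus (Sirt7 in the nucleolus), Sirt2 mainly in the cytosol, and Sirt3, Sirt4 and Sirt5 in mitochondria. Nampt makes nicotinamide mononucleotide from nicotinamide, the rate-limiting step by which NAD is rebuilt from the product of sirtuin reactions, and in mouse liver its transcription is driven by the circadian clock.

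The probes were 60 bases long, and Nampt and Sirt2 had 3 each, Sirt1 and Sirt7 had 2 each, and the other genes had 1. Nampt probe 3, Sirt1 probe 2 and Sirt2 probe 3 lie inside their gene, upstream of the other probes of that gene, and are shown because they read another stretch of the transcript than the probes near the gene's 3′ end. Positions are those of the slide 1 annotation (mm9); exon boundaries were not used here. The Nampt probe lies at chr12:33524065-33524124 (plus strand), the Sirt1 probe at chr10:62799756-62799815 (minus strand), and the Sirt2 probe at chr7:29571001-29572626 (plus strand), an interval longer than the probe.
Nampt probe 3 (A_52_P6328): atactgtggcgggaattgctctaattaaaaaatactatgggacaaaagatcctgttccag
Sirt1 probe 2 (A_52_P358612): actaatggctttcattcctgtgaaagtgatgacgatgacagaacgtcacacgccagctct
Sirt2 probe 3 (A_52_P656024): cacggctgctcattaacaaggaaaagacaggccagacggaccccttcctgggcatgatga

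The remaining probes are called Nampt probe 1 (A_51_P387235) and probe 2 (A_52_P535122), Sirt1 probe 1 (A_51_P141152), Sirt2 probe 1 (A_51_P110068) and probe 2 (A_52_P547447), Sirt7 probe 1 (A_51_P352264) and probe 2 (A_52_P138727), and Sirt3 (A_51_P477179), Sirt4 (A_51_P424641), Sirt5 (A_51_P411909) and Sirt6 (A_51_P416215). The 2 Sirt7 probes share 40 bases and Sirt2 probes 1 and 2 share 23 bases, so that these pairs are not separate readings. All 14 probes passed the filter on dim signals in every comparison. Sirt6 was the only one not well above background on every array, with 1 of 2 arrays for the control mothers.

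The 250 bases upstream of the transcription start of Sirt1 and Nampt (RefSeq, GRCm38.p6) are shown because Clock and Arntl, the activators of the circadian clock, bind the E-box CACGTG. All 8 genes had an entry, 10 in all. The motif, printed in capitals, occurred only in Sirt1, beginning 115 and 43 bases before the start, and 6.02% of 32851 upstream windows of this length held it. Sites outside these windows and other forms of the E-box were not searched, so that its absence here does not mean that a gene lacks E-boxes. Sirt1 lies at chr10:63339036-63339285 (minus strand) and Nampt at chr12:32820085-32820334 (plus strand). GTAAACA, searched on both strands, occurred in no member window, against 3.17% of all windows, and the same held for TGACGTCA, against 1.55%.
Sirt1 upstream: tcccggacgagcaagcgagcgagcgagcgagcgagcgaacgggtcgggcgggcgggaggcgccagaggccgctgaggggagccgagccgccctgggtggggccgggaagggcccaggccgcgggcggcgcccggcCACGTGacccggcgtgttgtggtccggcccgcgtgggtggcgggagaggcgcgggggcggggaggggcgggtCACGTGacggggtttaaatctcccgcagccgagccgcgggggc
Nampt upstream: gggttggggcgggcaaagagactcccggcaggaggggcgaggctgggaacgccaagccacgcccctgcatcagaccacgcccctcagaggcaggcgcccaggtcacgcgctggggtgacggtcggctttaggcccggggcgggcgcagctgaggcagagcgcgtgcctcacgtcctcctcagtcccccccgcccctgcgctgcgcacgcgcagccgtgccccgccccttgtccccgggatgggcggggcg

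Slide 1 carried the maternal arrays and the fetal pools of 6, and slide 2 the fetal pools of 3. Before correction the median spot signal of an array was 69.1 to 284 in Cy3 and 122 to 310 in Cy5, with a median background of 46 to 68. The number of arrays limits the precision. The 2 dye orientations of a pair correlated over all probes with r of 0.607 to 0.851. As a check of the labels, the log2 level of Xist was 13.0 in both maternal pools and at most 6.54 in the fetal pools, that of Afp was 8.65 and 7.85 in FR and control mothers and at least 16.5 in the fetal pools, and Alb, a hepatocyte gene, had at least 16.9 in every pool. Livers are mixtures of cells, and fewer cells of a type and less RNA per cell cannot be told apart here.

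Nampt was higher in FR than in control mothers by all 3 probes, and in fetuses its log2 ratios lay mostly below 0. On the maternal arrays with FR in Cy5 and in Cy3, the log2 ratio of FR over control was 0.78 and 0.74 for probe 1, 1.12 and 0.74 for probe 2, and 0.13 and 0.82 for probe 3. Probes 1 and 2 were thus past 1.5-fold on both arrays, the rule used to call a maternal change, while probe 3 was past it on the array with FR in Cy3 alone. The mean maternal fold was 1.69, 1.91 and 1.39 for the 3 probes. There was 1 maternal pair, so that no test was made. Of the 14 member probes these 2 were called higher in FR mothers and 0 lower, against 6.36% of 28326 probes called in either direction and 2.93% called higher, and at 2-fold 0 member probes were called, against 2.04%. Processing moved the call of probe 1: it was lost with median in place of mean spot signals (mean log2 ratio 0.66) and with the scanner software's processed signals (0.79), and both calls were lost with median centring in place of loess (0.75 and 0.91). With spots marked as non-uniform left out, neither probe had both maternal arrays.

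In fetuses the pair means of the log2 ratio of Nampt probe 1 were -0.24 in the pools of 6, -0.47 in group 1 and -0.06 in group 2. For probe 2 they were -0.05, -0.56 and 0.16, and for probe 3 -0.28, -0.39 and 0.04. Group 1 was the lowest of the 3 pairs for each probe, and group 2 the highest. The means were -0.26 ± 0.21, -0.15 ± 0.37 and -0.21 ± 0.22 (SD, n = 3 pool pairs), with limma adjusted p of 0.0862, 0.467 and 0.155, so that no fetal Nampt change passed the test. The 2 pairs on slide 2 alone had means of -0.27, -0.20 and -0.18. Without fetal group 2, probes 1 and 3 passed as lower in FR, by -0.36 (adjusted p 0.0342) and -0.34 (0.0261).

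The maternal response minus the fetal response of Nampt was 1.02 ± 0.17 for probe 1, 1.08 ± 0.28 for probe 2 and 0.68 ± 0.18 for probe 3 on the log2 scale (SE from limma, 1 maternal against 3 fetal pairs, the maternal pair being assumed to vary like the fetal ones). The adjusted p was 0.0534, 0.116 and 0.126, and thus 0 of 14 member probes passed, against 3.12% of 27584 probes. On slide 1 alone, where both tissues were hybridised together, the differences were 1.00, 0.98 and 0.75, with no test. The adjusted p of probe 1 ranged from 0.0223 to 0.178 over its alternatives. It was 0.0419 with a background offset of 10 and 0.0302 with processed signals. Leaving out fetal group 1 gave 0.0442 for probe 1. Leaving out fetal group 2 gave 0.0223, 0.0479 and 0.0316 for the 3 probes, whereas leaving out the fetal pools of 6 gave 0.178, 0.249 and 0.284. Without the pools of 6 the test passed no probe at all, member or not, so that these last values do not show a weaker Nampt difference.

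**Figure D1:**
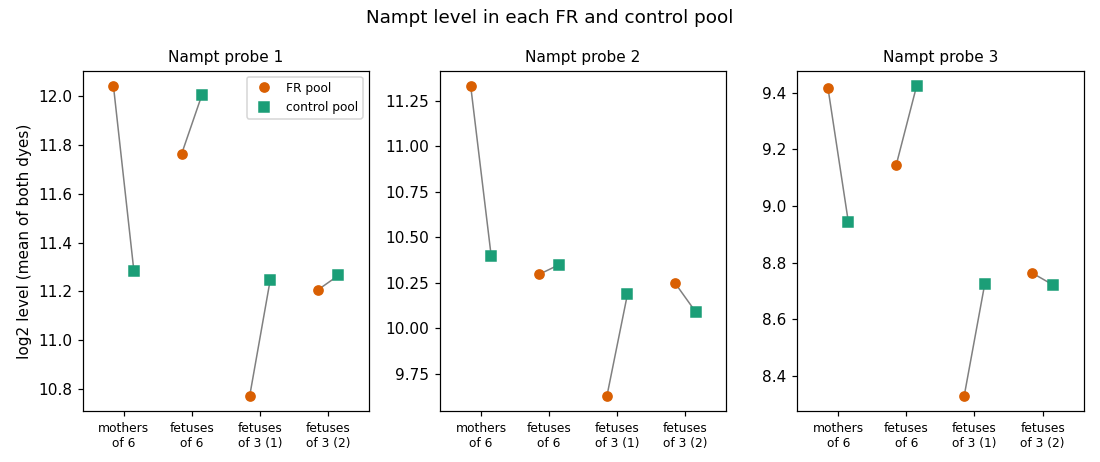
Log2 level of each Nampt probe in every pool (circles, FR; squares, control; a line joins the pools of 1 pair; mean of both dyes; axes start above 0 and differ between panels). The maternal FR pool lies above its control by 0.76, 0.93 and 0.47 for probes 1, 2 and 3, and in fetal group 1 the FR pool lies below its control by every probe.

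Between the tissues, control levels of Nampt did not differ past the test, and FR levels did by 1 of 3 probes. Over all probes the FR levels differed past the test for 8980 of 30976, and for 7 of 14 member probes, all 7 higher in mothers. A call at the FR level is thus common and not particular to Nampt. The FR mothers had log2 levels of 12.04, 11.33 and 9.42 by probes 1, 2 and 3, and the control mothers 11.28, 10.40 and 8.94. By probe 1 the FR fetuses had 11.76 in the pools of 6, 10.77 in group 1 and 11.21 in group 2, and the control fetuses 12.01, 11.25 and 11.27. The control mothers thus lay within the range of the control fetuses by probe 1. By probe 2 the control fetuses had 10.35, 10.19 and 10.09, all below the control mothers. Control mothers minus control fetuses gave -0.22, 0.19 and -0.01 for the 3 probes (limma adjusted p 0.658, 0.449 and 0.979), and FR mothers minus FR fetuses gave 0.79, 1.27 and 0.67 (adjusted p 0.17, 0.0263 and 0.176). On slide 1, with the same dye in both tissues, the control difference was -0.88 in Cy3 and -0.57 in Cy5 for probe 1. It was -0.06 and 0.15 for probe 2, and -0.52 and -0.44 for probe 3, with no test. The FR and control levels come from the same arrays as the responses above and are not a second reading of them.

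Among the nuclear sirtuins, Sirt7 was the gene whose fetal change passed the test, with a small decrease. Sirt7 is linked to transcription of ribosomal RNA genes. The log2 ratio of probe 1 was -0.08 and -0.20 on the 2 arrays of the fetal pools of 6 (FR in Cy5, then in Cy3), -0.17 and -0.35 in group 1, and -0.13 and -0.24 in group 2. Probe 2 gave -0.17 and -0.11, -0.14 and -0.28, and -0.17 and -0.25 in the same order. All 6 fetal arrays were thus lower in FR by both probes, as they were for 19.1% of 30812 probes. The means were -0.20 ± 0.06 and -0.19 ± 0.04 (SD, n = 3 pool pairs), with limma adjusted p of 0.04 and 0.0412. These were the 2 of 14 member probes called in fetuses, both lower and both of 1 gene. Of 30812 probes 25.2% were called in either direction, 10.9% higher and 14.3% lower. The share of member probes called lower is thus near that of all probes. Of all fetal calls 43.4% were higher, a share of 25.2% with median centring in place of loess.

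The Sirt7 call was not stable. Leaving out the fetal pools of 6, group 1 or group 2 gave adjusted p of 0.119, 0.141 and 0.095 for probe 1 and of 0.125, 0.137 and 0.123 for probe 2. It was also lost with slide as a fixed block (0.119 and 0.123), an offset of 10 (0.0613 and 0.0672), processed signals (0.0597 and 0.0806) and no loess (0.0646 and 0.0709, with log2 ratios of -0.35 and -0.33), and for probe 1 with median spot signals (0.0529). For each Sirt7 probe all 4 spots on slide 1 were marked as non-uniform. In mothers Sirt7 had log2 ratios of 0.01 and -0.11 for probe 1 and -0.02 and -0.08 for probe 2, and the maternal minus fetal difference was 0.14 and 0.13 (adjusted p 0.501 and 0.51).

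Sirt1, which deacetylates transcription factors of gluconeogenesis and fatty acid oxidation in liver, had log2 ratios above 0 on both maternal arrays. They were 0.13 and 0.53 for probe 1 and 0.16 and 0.12 for probe 2, short of 1.5-fold on both arrays. In fetuses the pair means of probe 1 were 0.07 in the pools of 6, 0.20 in group 1 and 0.23 in group 2, with a mean of 0.17 ± 0.09 (SD, n = 3 pool pairs, limma adjusted p 0.078). Probe 2 gave -0.07, 0.18 and 0.08, with a mean of 0.06 ± 0.13 (adjusted p 0.513). Thus 5 and 4 of 6 fetal arrays were higher in FR by probes 1 and 2, and neither probe passed the test. Probe 1 passed, with an adjusted p of 0.0378, when the 6 arrays entered with a dye term and the pool pair as a random block. That fit also called Nampt probe 1 (0.0251) in fetuses, lower in FR, and both Sirt7 probes.

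Sirt6, a deacetylase of histone H3 that represses glycolytic genes, had a dim probe and no change past the test. Its maternal log2 ratios were 0.17 and -0.08, and its fetal mean was -0.03 ± 0.05 (SD, n = 3 pool pairs, limma adjusted p 0.731).

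The cytosolic Sirt2, a deacetylase of tubulin and of metabolic enzymes, showed no FR change past the test by any of its 3 probes. Its fetal means were -0.06, -0.05 and -0.05 (SD 0.04, 0.08 and 0.02, n = 3 pool pairs, limma adjusted p 0.397, 0.484 and 0.422), and its maternal means were 0.09, 0.15 and 0.09. Probe 1 changed sign with the dye orientation. Its log2 ratio was -0.21 in mothers with FR in Cy5 and 0.40 with FR in Cy3. In fetuses it was -0.32 and 0.15 in the pools of 6, -0.16 and 0.14 in group 1, and -0.27 and 0.10 in group 2. The sign followed the dye in all 4 pairs, and the pair means lay near 0.

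Of the mitochondrial sirtuins, Sirt3 and Sirt4 had the larger maternal values, in opposite directions, and neither reached the call. Sirt3, the main mitochondrial deacetylase, had maternal log2 ratios of 0.63 and 0.37, a mean fold of 1.41, past 1.5-fold on 1 of 2 arrays. Its fetal pair means were 0.17 in the pools of 6, -0.03 in group 1 and 0.21 in group 2, and the mean was 0.11 ± 0.13 (SD, n = 3 pool pairs, limma adjusted p 0.249). The difference between maternal and fetal response was 0.39 ± 0.13 (SE, adjusted p 0.182). All 4 Sirt3 spots on slide 1 were marked as non-uniform.

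Sirt4, which acts on glutamate dehydrogenase and malonyl-CoA decarboxylase, had maternal log2 ratios of -0.42 and -0.44, so that FR mothers were at 0.74 of the control level, with close values in both dyes. In fetuses the values split by slide. The pools of 6 on slide 1 had -0.22 and -0.19, while on slide 2 group 1 had 0.24 and 0.26 and group 2 had 0.35 and 0.31. The mean was 0.13 ± 0.29 (SD, n = 3 pool pairs, adjusted p 0.45), and the 2 slide 2 pairs averaged 0.29. Slide, pool size and software version differ together between these pairs and cannot be told apart. The maternal minus fetal difference was -0.56 ± 0.23 (SE, adjusted p 0.254), and on slide 1 alone it was -0.23.

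Sirt5, which removes succinyl and malonyl groups and acts on the urea cycle enzyme Cps1, had maternal log2 ratios of -0.20 and 0.12. Its fetal pair means were -0.21, -0.31 and 0.06, with a mean of -0.15 ± 0.19 (SD, n = 3 pool pairs, limma adjusted p 0.227). Without group 2 it was -0.26 (adjusted p 0.0488).

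**Figure D2:**
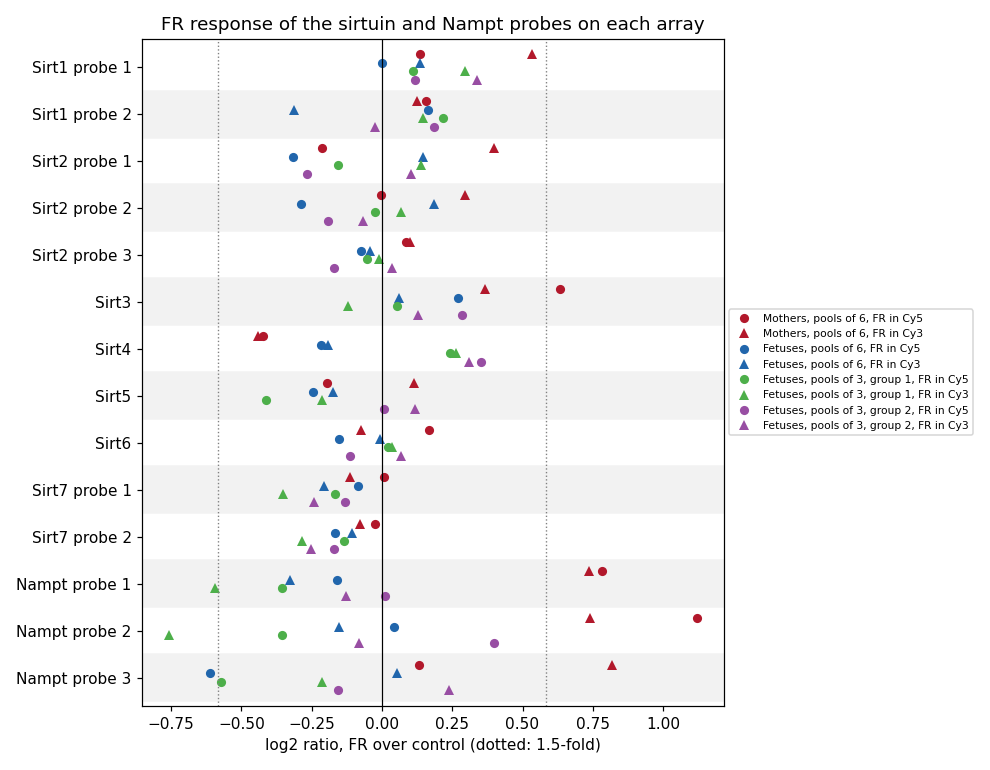
Log2 ratio of FR over control for each of the 14 probes on each of the 8 arrays (circles, FR in Cy5; triangles, FR in Cy3; colours, pool pairs; dotted lines, 1.5-fold). Maternal values of Nampt probes 1 and 2 lie between 0.74 and 1.12, all 6 fetal values of both Sirt7 probes lie below 0, and the Sirt4 values separate by slide.

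The control livers of mothers and fetuses differed in 4 of the sirtuins. Control mothers had higher levels than control fetuses of Sirt2, Sirt3, Sirt4 and Sirt5. These work mainly outside the nucleus, but whether the differences go with that place in the cell was not tested. The Sirt2 probes that passed share 23 bases, and Sirt2 probe 3 did not pass. Several of these calls depended on which fetal pools were kept, as given below. The test set 1 maternal control pool against 3 fetal ones and assumed that the maternal pool varies like the fetal ones. Of the 14 probes, 5 passed the test as higher in mothers and 0 as lower, against 32.4% of 30531 probes passing in either direction, 17% passing as higher and 15.5% as lower. The share of member probes passing was near that of all probes passing in either direction, and above that of all probes passing as higher. Whether these shares differ was not tested. Of all calls 52.3% were higher in mothers, a share of 62.9% when channels were scaled by their 75th percentile. That scaling moved the median of all probes from 0.02 to 0.25, and values under it are to be read against that shift.

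Sirt4 had the largest difference of the 8 genes. Its control log2 level was 9.97 in mothers, against 8.59, 7.99 and 7.96 in the fetal pools of 6, group 1 and group 2, and the difference was 1.79 ± 0.29 (SE, limma adjusted p 0.00916), or 3.47-fold. On slide 1, with the same dye in both tissues, it was 1.34 in Cy3 and 1.43 in Cy5. Sirt3 had 13.51 in control mothers, against 12.63, 12.83 and 12.82 in control fetuses, and Sirt5 had 11.26 in control mothers, against 10.39, 10.52 and 10.46. These were differences of 0.75 ± 0.17 (adjusted p 0.024, 1.68-fold) and 0.80 ± 0.15 (adjusted p 0.0145, 1.74-fold), with 0.92 and 0.84 for Sirt3 and 0.88 and 0.85 for Sirt5 on slide 1. In each of these genes the maternal pool lay above every fetal pool. Scaled by the 75th percentile Sirt3 differed by 1.34 and with processed signals its adjusted p was 0.0752.

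Sirt2 was higher in control mothers by 0.85 ± 0.15, 0.77 ± 0.17 and 0.78 ± 0.25 for its 3 probes (SE), with limma adjusted p of 0.0107, 0.022 and 0.067. By probe 1 the control mothers had 11.15, against 10.33, 10.26 and 10.29 in control fetuses, and the probe that read another stretch, probe 3, had 9.60, against 8.51, 8.89 and 9.06. Leaving out fetal group 1 ended the calls of Sirt2 probe 1 (adjusted p 0.0626) and probe 2 (0.0985), Sirt3 (0.0816) and Sirt5 (0.0643), leaving Sirt4. Leaving out group 2 ended those of Sirt2 probe 2 (0.0637) and Sirt3 (0.0584). Without the fetal pools of 6 Sirt2 probe 3 passed (0.0196).

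The nuclear sirtuins and Nampt did not differ past the test between control mothers and fetuses. Sirt7 differed by 0.12 and 0.11 (limma adjusted p 0.604 and 0.638), and Sirt6 by -0.16 (0.457). The 2 Sirt1 probes gave 0.06 and -0.28 (0.908 and 0.634), and they ordered the fetal pools in opposite ways: the control pools of 6 on slide 1 had 10.27 by probe 1, against 9.49 and 9.45 in groups 1 and 2, but 8.75 by probe 2, against 9.62 and 9.66. Without the pools of 6, probe 2 was lower in mothers by -0.57 (adjusted p 0.0149).

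**Figure D3:**
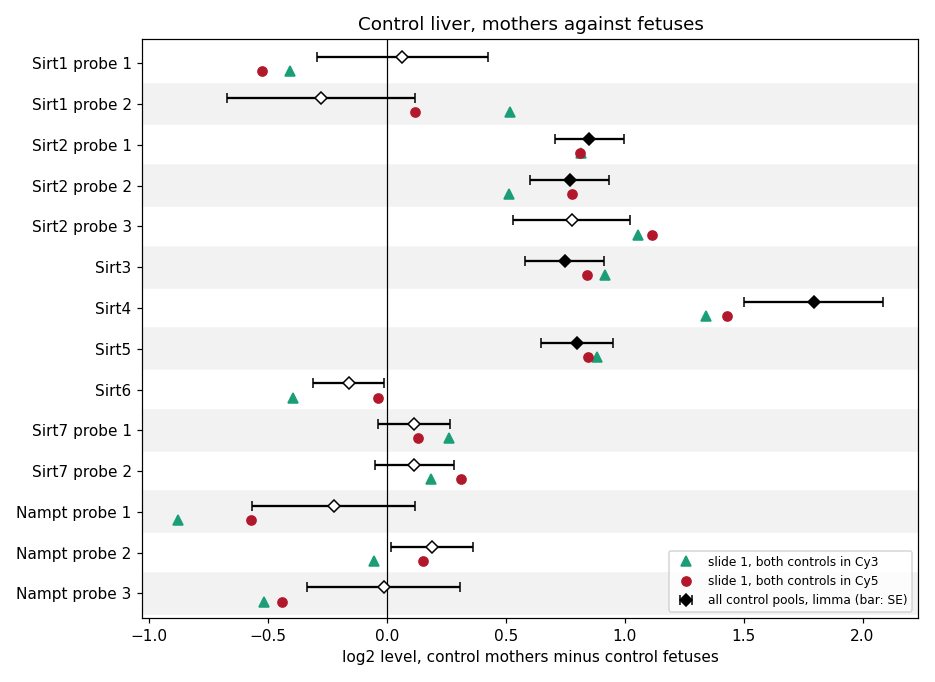
Control log2 level in mothers minus fetuses for each probe (diamonds, limma estimate over 1 maternal and 3 fetal pools with its SE, filled where adjusted p was below 0.05; triangles and circles, slide 1 alone with both controls in Cy3 or in Cy5). The filled diamonds belong to Sirt2 probes 1 and 2, Sirt3, Sirt4 and Sirt5, and slide 1 values lie on the same side of 0 for these genes.

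Markers of granulocytes and B lineage cells were mostly lower with FR in fetal liver. The summed level of 10 granulocyte markers was 251300 to 276200 in the FR fetal pools, against 376000 to 399900 in the control fetal pools, with 7 of 10 called lower in FR, and 8 of 10 B lineage markers were called lower, beside 14.2% of all genes. Erythroid marker sums had log2 ratios of 0.55, 0.63 and -0.03 in the pools of 6, group 1 and group 2. Yet 0 of 9 erythroid markers were called higher and 1 lower. Hepatocyte sums had -0.05, -0.56 and -0.18, with 2 of 10 markers called higher and 4 lower. Kupffer and macrophage sums had 0.117, 0.046 and 0.155, with 1 of 10 called higher and 3 lower. Endothelial and stellate sums had -0.014, -0.098 and -0.165, with 0 of 10 called higher and 3 lower. Each marker found of these lists was well above background in both channels of at least 1 array of every fetal pool pair. In mothers the summed level of the 9 erythroid markers found was 17680 in the FR pool, against 30170 in the control pool. Of the 6 measured, 1 was called higher and 3 lower. The sum of 10 Kupffer and macrophage markers was 28100 in the FR pool, against 39940 in the control pool, with 0 called higher and 2 lower. Of all genes 3% were called higher and 3.84% lower in FR mothers. Between control mothers and control fetuses, 9 of 9 erythroid, 10 of 10 granulocyte and 9 of 10 B lineage markers were called lower in mothers, beside 17.6% of all genes. Of the markers found, 3 erythroid, 4 granulocyte and 4 B lineage ones were not well above background in both channels of any maternal array. A marker could enter this comparison through the fetal pools alone, so that these counts depend in part on the filter. The part of these shifts in the Sirt7, Nampt and level results was not tested.

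Other genes of NAD metabolism were counted from lists. Of 21 genes of NAD precursor uptake and synthesis measured in fetuses, 3 rose and 7 fell in FR (limma adjusted p below 0.05), beside 11.4% of 21355 genes higher and 14.2% lower, with a median log2 ratio of 0.00, that of all probes also being 0.00. Pnp, which splits nicotinamide riboside, fell by 0.89 (adjusted p 0.00898). Kynu and Haao of the kynurenine route fell by 0.62 (0.0498) and 0.35 (0.0136), and Nmnat3, the mitochondrial nicotinamide mononucleotide adenylyltransferase, rose by 0.47 (0.009). In mothers 1 of 20 was called higher and 2 lower, beside 3% of 19736 genes higher and 3.84% lower. Tdo2, the first enzyme of tryptophan breakdown, had log2 ratios of 0.88 and 1.46 on the 2 arrays, Ido2 had -1.44 and -1.37, and Pnp had -1.08 and -0.65. Tdo2 was the 1 gene of this list whose maternal and fetal responses differed past the test, by 1.06 (adjusted p 0.0251), beside 3.6% of 19245 genes.

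Of 13 genes that consume NAD or clear nicotinamide, 3 rose and 3 fell in FR fetuses, beside 11.4% and 14.2% of all genes, with a median of -0.03. Bst1, a surface NAD glycohydrolase also found on B lineage and myeloid cells, fell by 0.85 (limma adjusted p 0.0047). It had log2 ratios of -0.04 and 0.01 in mothers, and the difference of 0.83 passed the test (0.0334). Nudt13, an NAD(P)H pyrophosphatase, fell by 0.47 in fetuses (0.011) and was the 1 gene of 13 called in mothers, with -1.01 and -0.82. Control mothers were above control fetuses in 14 of 20 genes of the synthesis list and below in 2, and above in 6 of 13 genes of the consumer list and below in 3, beside 17.1% of 21104 genes above and 17.6% below.

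**Figure D4:**
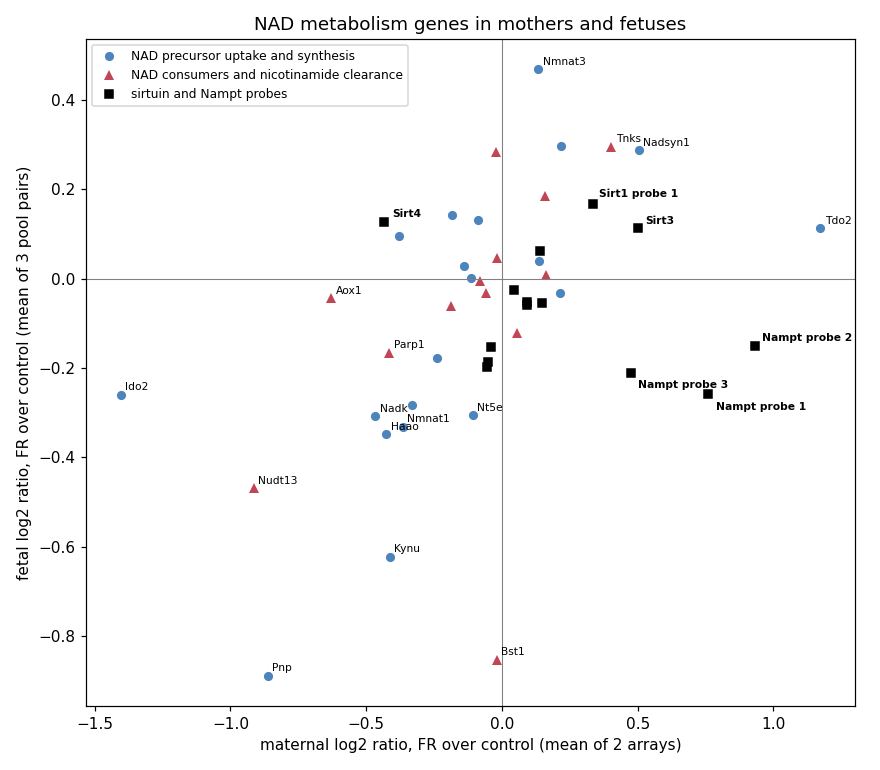
Maternal log2 ratio of FR over control (mean of 2 arrays) against the fetal log2 ratio (mean of 3 pool pairs), for genes of NAD synthesis (circles), genes that consume NAD or clear nicotinamide (triangles) and the 14 member probes (squares). The 3 Nampt probes lie to the right and below 0 on the fetal axis, apart from Tdo2 (1.17 in mothers, 0.11 in fetuses) and Pnp (-0.86 in mothers, -0.89 in fetuses).

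Regulators and deacetylation targets of Sirt1 showed 3 of 19 higher and 4 lower in FR fetuses, beside 11.4% and 14.2% of all genes, and 2 higher and 1 lower in FR mothers, beside 3% and 3.84%. Ppargc1a, a coactivator of gluconeogenesis and mitochondrial genes, had maternal log2 ratios of 1.32 and 1.15 and rose by 0.61 in fetuses (limma adjusted p 0.0277). Crtc2, a coactivator of cAMP-driven genes, had 0.79 and 1.14 in mothers and rose by 0.30 in fetuses (0.0169), and its responses differed by 0.66 (0.0469). Nr1h3, a receptor for oxysterols, had -0.71 and -0.70 in mothers and fell by 0.64 in fetuses (0.0352), and Acss2, a cytosolic acetyl-CoA synthetase, fell by 0.98 in fetuses (0.00844).

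Among 20 enzymes known as substrates of mitochondrial sirtuins, 1 was higher and 3 were lower in FR fetuses, beside 11.4% and 14.2% of all genes, and 0 higher and 1 lower in FR mothers, beside 3% and 3.84%. These shares are near those of all genes. In fetuses the urea cycle enzyme Otc fell by 0.66 (limma adjusted p 0.00761) and Uox by 1.00 (0.0198), while Cps1 rose by 0.67 (0.0375). Otc was the maternal call, with -0.79 and -0.86. Of 10 zinc-dependent histone deacetylases, which do not use NAD, 1 was higher and 4 lower in FR fetuses, beside 11.4% and 14.2% of all genes, and 0 were called in mothers, beside 3% and 3.84%. Hdac6 rose by 0.35 (0.00941), and Hdac5 fell by 0.30 (0.0462).

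Core clock and clock output genes had 9 of 21 called higher and 3 lower in FR mothers, beside 3% and 3.84% of all genes. In FR fetuses 7 were called higher and 5 lower, beside 11.4% and 14.2%. Responses of 9 of the 21 differed between mothers and fetuses past the test, 6 higher and 3 lower in mothers, beside 3.6% of all genes. Arntl and Clock, named here after their values were seen, were called lower in mothers, with mean log2 ratios of -1.40 and -0.86. Their responses differed from the fetal ones by -0.80 (limma adjusted p 0.0237) and -0.94 (0.0199). Arntl fell in FR fetuses too, by 0.60 (0.00483), while Clock had 0.08 there (0.273). Npas2 of the same list had -0.08 in mothers and was not called, and its difference of -0.08 did not pass the test. The output factor gene Dbp differed by 2.40 (limma adjusted p 0.00549) and Nfil3, a repressor of the same sites, by -2.37 (0.00969). Per the labels, all animals were dissected in the same late morning hours.

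The genes whose ratios were most like those of Sirt1, Sirt3 and Nampt over the 8 arrays were picked by Pearson correlation with the brightest probe of each, out of 14561 candidates. For Nampt these were Hmox2 (r of 0.993), Fam3c (0.992) and Steap2 (0.989). For Sirt3 they were Clca3a1 (0.998), Mrpl43 (0.995) and Zbtb11os1 (0.984), and for Sirt1 Gpbp1 (0.970), Ubl4a (0.968) and Scaper (0.968). The 8 points share 4 pool pairs and 2 dye orientations, and the values are a description. Mrpl43 had a maternal mean of 0.04 and a fetal mean of -0.36, against 0.50 and 0.11 for Sirt3, so that likeness covers the order of the arrays and not the level of the ratio.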

How the data were processed

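The array annotation and RNA labels gave the groups. Per the file headers, the deposited scanner files hold intensity values of Cy3 and Cy5 from Agilent Feature Extraction, version 9.5.3.1 on slide 1, the version named in the submitters' processing notes, and 11.0.1.1 on slide 2. The deposited value table holds log10 ratios of Cy5 over Cy3, not turned for dye, which equalled log10(processed Cy5 signal / processed Cy3 signal) of the scanner files within 5e-08; array medians were -0.0218 to 0.0126. How the authors centred them is not given in the sources used here.

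Spot signals (mean on slide 1; median on slide 2, where no mean column exists) were read with R 4.3.3, data.table (1.17.8) and jsonlite 2.0.0, corrected by normexp (offset 50), loess-normalized within arrays, control spots given weight 0 (limma 3.58.1), and, for levels, between arrays by Aquantile. Ratios were turned to log2 of FR over control, where the deposited ones are log10. Population outliers were left out and non-uniform spots kept, since that flag marked 11.9% to 19.7% of spots on slide 1 and at most 0.0138% on slide 2. A probe entered a comparison if either diet was well above background throughout its arrays (for levels, on every control channel of 1 tissue). The 2 dye orientations were averaged, so that n counts pool pairs. Tests were limma's lmFit and eBayes with Benjamini-Hochberg adjustment over all probes kept, at 0.05; the single maternal pair had no test and a call needed 1.5-fold on both arrays in the same direction. Random blocks used statmod 1.5.0. List genes were read from their brightest probe. Slide 2 probes were named through the same probe IDs on slide 1. RefSeq gave a current symbol to 26918 of 41174 probes through the accession and to 5082 through the older symbol; 9174 were unmatched. The fit was tested on simulated data. The members and lists were chosen with earlier results of these data known. Every member probe was named. List genes were named by size of change, at most 4 per list and comparison (1 such gene is not reported here), and the likeness genes were the 3 with the highest correlation. Alternatives changed the offset, spot signal, flags, signal source, dim-probe filter, normalization, slide block and replicates.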

Additional observations from a re-analysis of the deposited data

Results flagged for a closer look

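For 3 of 14 member probes the maternal pool pair lay on the other side of 0 from all 3 fetal pool pairs, as it did for 17.2% of 27584 probes. Nampt probe 1 had a maternal log2 ratio of 0.76 and fetal pair means of -0.24, -0.47 and -0.06, and the difference of 1.018 did not pass the test of the difference (limma adjusted p 0.0534). Sirt2 probe 1 had 0.09 in mothers and -0.08, -0.01 and -0.08 in fetuses, a difference of 0.1514 (0.455). Sirt2 probe 3 had 0.09 in mothers and -0.06, -0.03 and -0.07 in fetuses, a difference of 0.1451 (0.453). For Sirt2 probe 1 this difference is smaller than the gap between the dye orientations of that probe in each of the 4 pairs.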

How the results depend on the processing

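No member probe with a called value changed direction under any alternative run. The 2 fetal member calls were 0 with offset 10, processed signals, no loess, slide as a fixed block or non-uniform spots left out, 1 with median signals, 4 with 6 arrays, a dye term and pair as a random block (consensus correlation 0.413), and 0 to 3 when each pool pair was left out. Over all probes the 7776 fetal calls became 5024 (non-uniform spots out), 4602 (no loess), 3315 (slide block) and 1099 to 6897 (pairs left out). The 2 maternal calls became 1 with median or processed signals and 0 with non-uniform spots out, no loess or a 2-fold rule, and the 1802 over all probes 1138 (non-uniform spots out), 3588 (processed signals), 480 (no loess) and 577 (2-fold). The 0 member calls of the maternal minus fetal response became 1 with offset 10 or processed signals and 0 to 3 with pairs left out, and the 861 over all probes 367 (non-uniform spots out), 1993 (processed signals), 274 (no loess, 60.2% higher against 49.5%) and 0 to 1170, the 0 being without the fetal pools of 6. The 5 level calls became 3 with non-uniform spots out and 1 to 7 with pairs left out, and the 9900 over all probes 5904 to 15741. Of the other member values, 502 kept their sign and their side of the threshold or, where no call was made, moved within the spread. Another 37 changed sign without a call or, where no call was made, moved beyond the spread. A call was lost by 28 and gained by 15. Slide as a random block could not be fitted. No paired analysis was possible because the tissues shared fewer than 2 pool numbers; FR and control pools were already compared within arrays. The cause of these shifts was not tested. Dim signal limits Sirt6 most.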
